A study of Mus musculus with 30 samples.

Results

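CHD8 and SMARCA5 were compared in untreated mouse embryonic stem cells through the peaks of 4 chromatin immunoprecipitation and sequencing (ChIP-seq) libraries, 2 for each protein. The peaks used were all those on chromosomes 1 to 19 and X in those 4 lists, 51924 and 40870 for CHD8 and 55470 and 73222 for SMARCA5. This makes 221486 of the 1428564 peaks in the 20 peak lists of the series, which has 30 samples in all. The series follows CTCF, the cohesin subunit SMC1A and several remodelers before and after CTCF is degraded. All cells were E14, a mouse embryonic stem cell line, grown without serum in medium with leukemia inhibitory factor, PD0325901 and CHIR99021. The CHD8 libraries came from cells of the genotype CTCF AID and biotin-CHD8, and the SMARCA5 libraries from cells of the genotype CTCF AID and biotin-SMARCA5. Both lines therefore carried an auxin-inducible degron on CTCF and had no IAA, the auxin that triggers its loss. Since each target was read in its own tagged line, a difference between targets and a difference between lines cannot be told apart. The labels do not say whether replicates were separate cultures, so the spread between them may be technical.

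CHD8 is an ATPase of the CHD family, whose chromodomains contact histone tails, and it is known as a partner of CTCF, as a regulator of Wnt and p53 target genes and as a gene mutated in autism. SMARCA5, also called SNF2H, is the ATPase of the ISWI complexes, which slide nucleosomes into regular arrays. It is known for keeping nucleosomes phased beside bound CTCF. CTCF itself binds DNA through zinc fingers at an asymmetric motif, so that each site has a 5′ and a 3′ side, and it halts cohesin.

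Peaks of the 4 lists that overlapped by at least 1 bp were merged into 98508 regions. A region was called shared when all 4 lists had a peak there, and distinct when both lists of one remodeler and neither list of the other did. Promoter means a summit within 1 kb of an annotated start site, and every other region is called distal. Strong regions of the classes are shown as examples of their sequences, and 4 are printed here from the GRCm38 reference with capitals on CG dinucleotides. The windows span 100 bp to either side of the summit on the plus strand, except for Ywhae, which encodes a 14-3-3 adaptor protein and for which the 200 bases upstream of its start site are shown in the direction of the gene, chr11:75732669-75732868. Mettl27 and Ccr1 lie nearest to the top promoter and distal SMARCA5-distinct summits, both in intergenic sequence (chr5:134931501-134931701 and chr9:123936860-123937060). Cnot1, a scaffold subunit of the deadenylase that shortens mRNA tails, stands for the shared promoters, with its summit in an exon of the noncoding gene 4930513N10Rik (chr8:95807795-95807995).
Ywhae, CHD8-distinct promoter: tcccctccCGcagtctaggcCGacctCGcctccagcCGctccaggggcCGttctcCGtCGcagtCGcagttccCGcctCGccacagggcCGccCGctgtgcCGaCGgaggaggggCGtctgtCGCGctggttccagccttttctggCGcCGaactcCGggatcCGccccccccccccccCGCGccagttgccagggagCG
Mettl27, SMARCA5-distinct promoter: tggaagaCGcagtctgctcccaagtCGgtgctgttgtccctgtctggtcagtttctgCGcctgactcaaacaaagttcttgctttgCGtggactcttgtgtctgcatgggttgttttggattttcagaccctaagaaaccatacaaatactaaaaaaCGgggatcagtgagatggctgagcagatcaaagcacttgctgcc
Ccr1, SMARCA5-distinct distal: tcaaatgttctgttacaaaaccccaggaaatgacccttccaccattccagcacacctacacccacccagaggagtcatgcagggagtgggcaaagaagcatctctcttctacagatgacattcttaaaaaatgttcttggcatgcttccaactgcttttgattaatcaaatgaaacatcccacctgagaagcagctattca
Cnot1, shared promoter: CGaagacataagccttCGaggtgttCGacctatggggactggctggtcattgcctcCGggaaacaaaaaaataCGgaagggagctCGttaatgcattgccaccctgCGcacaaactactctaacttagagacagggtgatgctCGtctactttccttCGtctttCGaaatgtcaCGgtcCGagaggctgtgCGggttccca
The window upstream of Ywhae had 24 CG dinucleotides and a GC content of 74.5%. In the SMARCA5-distinct windows the numbers were 5 and 48.3% at Mettl27 and 0 and 43.8% at Ccr1. The Cnot1 window had 13 and 51.7%. The Ywhae window does not hold the summit of its peak, and single windows do not stand for their class. Over whole classes, the median GC content up to 100 bp from the summit was 65.2% in shared, 60.7% in CHD8-distinct and 47.3% in SMARCA5-distinct promoter regions, so Cnot1 and Ywhae are in the opposite order to their classes. Windows with a GC content above 50% and an observed to expected CG ratio above 0.6 made up 70.9%, 50.8% and 7.72% of these promoter regions.

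Of the 98508 regions, 17019 (17.3%) were shared, 8411 (8.54%) were CHD8-distinct and 9882 (10.03%) were SMARCA5-distinct. The other 63196 regions were in 1 list of a remodeler or in mixed combinations, among them 11282 found in CHD8 replicate 1 alone and 21926 found in SMARCA5 replicate 2 alone. Of the 32205 regions in both CHD8 lists, 52.8% were shared and 26.1% distinct. Of the 30449 regions in both SMARCA5 lists, 55.9% were shared and 32.5% distinct. Replicate 1 of CHD8 had 64.4% of its peaks overlapped by replicate 2, which had 85.9% of its peaks overlapped by replicate 1. For SMARCA5 the shares were 68.7% and 50.7%. The length covered by both lists was 0.583 of the length covered by either for CHD8 and 0.350 for SMARCA5. Between the remodelers, 44.4% to 60.5% of the peaks of a CHD8 list were overlapped by a SMARCA5 list. After the CHD8 peaks were shifted by 100 kb this was 6.06% to 8.45%. Of the peaks of SMARCA5 replicate 2, 50.8% and 42.5% were overlapped by CHD8 replicates 1 and 2. The 50.7% overlapped by SMARCA5 replicate 1 lies between these values. For a CHD8 and a SMARCA5 list, the length covered by both was 0.197 to 0.269 of that covered by either. The highest fold enrichment over background, as the authors' lists give it, was 187 and 137 for CHD8 and 23.9 and 28.2 for SMARCA5. The class counts moved with the call settings. With peaks of a −log10 q of at least 5 only, 11125 regions were CHD8-distinct, 2440 SMARCA5-distinct and 5702 shared. With the list cut to equal lengths the counts were 10971, 5694 and 12510.

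**Figure D1:**
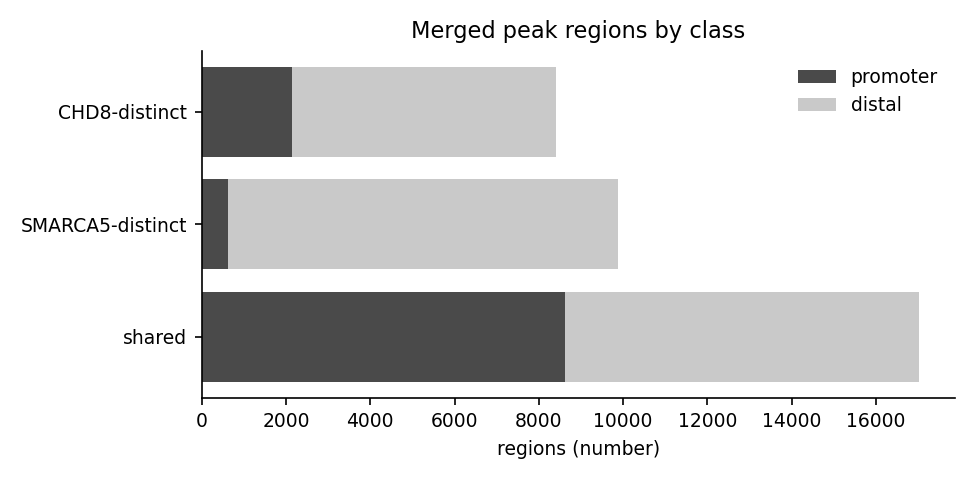
Number of merged regions in each class (horizontal axis), split into promoter regions (dark) and distal regions (light). The shared bar is about evenly split, with 8625 promoter and 8394 distal regions, while the SMARCA5-distinct bar holds 635 promoter and 9247 distal regions.

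Shared regions were promoters in 50.7% of cases, CHD8-distinct regions in 25.4% and SMARCA5-distinct regions in 6.43%. Counted per list, 31.3% and 36.8% of CHD8 peaks and 28.3% and 27.4% of SMARCA5 peaks were promoter peaks, or 34.1% ± 3.90 (SD, n = 2) against 27.8% ± 0.654 (SD, n = 2). At start sites shifted by 100 kb the 4 shares were 6.62% to 7.55%. The difference of the means, 6.25 points, depended on the setting. It was 11.8 points with start sites within 500 bp and 4.12 points within 2 kb. With a −log10 q of at least 5 it was 12.4 points. The CHD8 and SMARCA5 libraries did not overlap, but 2 libraries against 2 cannot give a two-sided exact permutation p below 0.333, which is the value found here. That limit holds for every comparison of the remodelers below, so library values and their overlap are given in its place. Distal regions lay at a median of 10276 bp from a start site when CHD8-distinct, 12699 bp when SMARCA5-distinct and 9607 bp when shared.

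Among the strongest peaks of a list, the promoter share separated the remodelers far more than over the whole list. The percentile of a peak is its place by −log10 p in its own list, with 100 the strongest. Lists were divided into 10 equal classes by percentile. In the strongest class, 93.6% and 94.2% of CHD8 peaks were at promoters, against 27.0% and 33.4% of SMARCA5 peaks. In the weakest class the order was the opposite, with 12.2% and 15.3% for CHD8 and 22.8% and 20.2% for SMARCA5. The median percentile of promoter peaks was 81.8 and 78.6 in the CHD8 lists and 54.3 and 58.8 in the SMARCA5 lists, without overlap (two-sided exact permutation p = 0.333, n = 2 against 2). The difference of 23.6 points became 24.9 when peaks were ranked by fold enrichment. The strongest class of either remodeler was mostly in shared regions, 77.4% and 76.4% for CHD8 and 74.8% and 74.9% for SMARCA5.

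**Figure D2:**
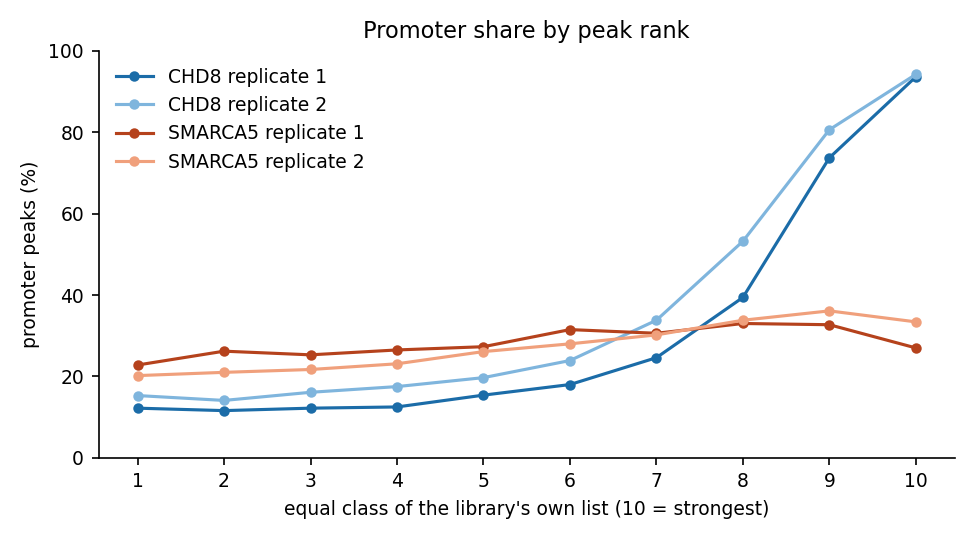
Percentage of peaks at promoters (vertical axis) in each of 10 equal classes of a library's own list by −log10 p (horizontal axis, 10 is the strongest), one line per library. Both CHD8 lines climb to 93.6% and 94.2% in the strongest class, while the SMARCA5 lines stay between 20.2% and 36.1% throughout.

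At shared promoter regions the median percentile was 88.1 and 84.4 for CHD8 and 68.3 and 77.7 for SMARCA5. At shared distal regions it was 63.4 and 53.3 for CHD8 and 73.5 and 79.6 for SMARCA5, so the order of the libraries turned. Over the 17019 shared regions the CHD8 replicates ranked regions alike (Spearman's rho 0.93) and the SMARCA5 replicates less so (0.55). Between the remodelers rho was 0.04 to 0.11 over all shared regions, 0.12 to 0.15 over the 8625 promoters and 0.13 to 0.18 over the 8394 distal regions. These are descriptions across regions of the same genome, which share libraries, sequence and copy number. The 2 SMARCA5 lists also differ in length and in the style of the peak names, and what part that has in their lower agreement was not tested.

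Within a promoter, the summits of the remodelers sat at different places. CHD8 summits gathered just inside the gene and SMARCA5 summits were few near the start site. Taking the outermost start site of each protein-coding gene and the summits within 1 kb of one, 32.2% and 35.6% of CHD8 summits and 4.82% and 5.07% of SMARCA5 summits were within 100 bp of it. That is 33.9% ± 2.42 (SD, n = 2) against 4.95% ± 0.171 (SD, n = 2), without overlap (two-sided exact permutation p = 0.333). The fullest 50 bp bin for both CHD8 lists was the one from 100 to 150 bp inside the gene, with 15.6% and 14.4% of the summits, where SMARCA5 had 2.90% and 3.49%. The first 50 bp of the gene held 8.12% and 8.86% of CHD8 summits and 1.02% and 1.19% of SMARCA5 summits. Between 100 and 500 bp upstream were 17.4% and 19.3% of CHD8 and 23.6% and 22.5% of SMARCA5 summits. Between 100 and 500 bp inside the gene the libraries overlapped, with 39.9% and 34.6% of CHD8 and 32.0% and 35.4% of SMARCA5 summits. The lists made after 12 h of IAA, which the comparison above did not use, gave the same picture, with 11.5% and 13.6% of CHD8 summits and 2.33% and 1.87% of SMARCA5 summits in the 100 bp before the start site and 21.6% and 21.7% against 3.82% and 2.62% in the 100 bp after it.

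**Figure D3:**
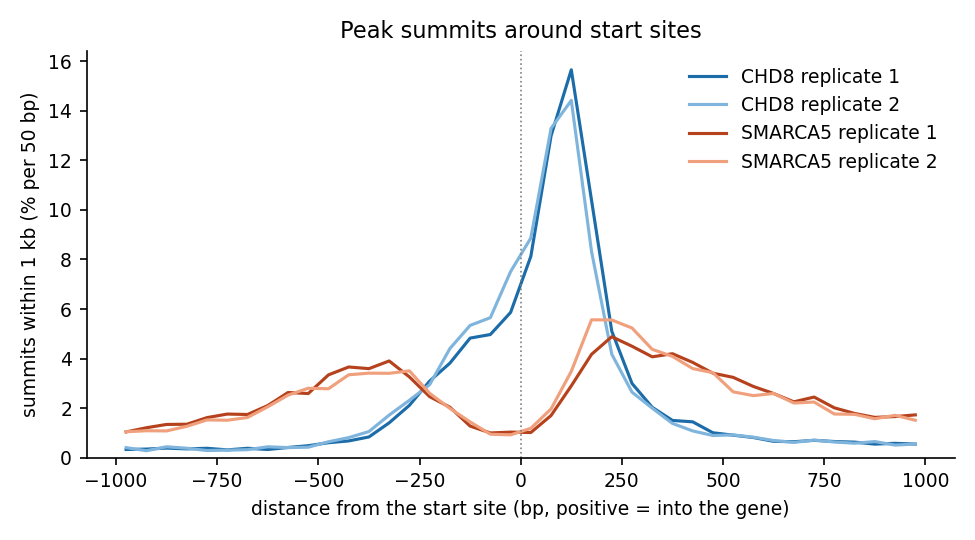
Distribution of peak summits around the start sites of protein-coding genes, as the percentage of a library's summits within 1 kb that fall in each 50 bp bin (vertical axis) by distance from the start site (horizontal axis, bp, positive into the gene). The CHD8 lines peak at 15.6% and 14.4% just inside the gene, and the SMARCA5 lines dip to about 1% at the start site with a shoulder on either side.

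At the 8625 shared promoter regions the strongest summits of the CHD8 replicates lay a median of 41 bp apart, and those of the SMARCA5 replicates 279 bp apart. A CHD8 and a SMARCA5 summit lay 392 to 430 bp apart, farther than the replicates of either. At the 6797 shared distal regions away from CTCF sites the medians were 84 bp, 199 bp and 363 to 385 bp.

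CTCF sites were the 29926 summits of the untreated CTCF list, which is a single library. Of these, 92.0% had a match to a motif model learned from CTCF summits on 9 chromosomes, whose consensus was NGGCCACNAGGGGGCGCNN, against 91.7% on the chromosomes that were not used and 5.00% at sites shifted by 100 kb. CHD8 peaks had their summit within 200 bp of a CTCF site in 10.4% and 10.9% of cases and SMARCA5 peaks in 4.31% and 4.77%, or 10.7% ± 0.339 against 4.54% ± 0.328 (SD, n = 2), against 0.918% to 1.13% at shifted sites. The libraries did not overlap (two-sided exact permutation p = 0.333). The limit of 200 bp cuts through the SMARCA5 summits more than those of CHD8, so these shares hold for that limit only. From 200 to 250 bp away there were 796 and 1066 SMARCA5 summits, more than the 398 and 588 in the nearest 50 bp. For CHD8 the counts were 505 and 429 against 2176 and 1660. When a peak counted if any part of it came within 100 bp of a CTCF summit, the mean shares were 15.2% for CHD8 and 7.81% for SMARCA5 (two-sided exact permutation p = 0.333). The gap under a wider limit on the summit distance was not tested. The peaks at CTCF sites had a median percentile of 52.2 and 49.9 for CHD8 and 50.7 and 51.2 for SMARCA5, which overlap (two-sided exact permutation p = 1.00). Ranked by fold enrichment, the CHD8 mean was 48.0 and the SMARCA5 mean 50.1, without overlap, and the direction reversed.

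The place of the summit at a CTCF site differed. Among summits no more than 200 bp from CTCF, 40.3% and 37.3% of those of CHD8 and 16.7% and 16.8% of those of SMARCA5 were within 50 bp of the CTCF summit. The means were 38.8% ± 2.09 and 16.8% ± 0.121 (SD, n = 2), without overlap (two-sided exact permutation p = 0.333). At shifted sites the shares were 28.1% and 26.6% for CHD8 and 23.0% and 24.8% for SMARCA5, so CHD8 was above and SMARCA5 below its own background. Leaving out CTCF sites within 1 kb of a start site widened the difference from 22.0 to 27.1 percentage points.

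Read along the 23609 CTCF sites with a single motif match, both remodelers had more summits on the 3′ side. Of the summits 50 to 200 bp from the motif middle, 59.9% and 59.1% for CHD8 and 64.0% and 66.5% for SMARCA5 were on that side, from 2353, 2065, 1418 and 2134 summits. Exact Clopper-Pearson 95% intervals, which cover counting error over summits only, were 57.9% to 61.9% and 57.0% to 61.3% for CHD8 and 61.4% to 66.5% and 64.5% to 68.5% for SMARCA5. At shifted sites the shares were 43.9% to 49.0%. The means of 59.5% ± 0.562 and 65.3% ± 1.82 (SD, n = 2) had libraries that did not overlap (two-sided exact permutation p = 0.333), although the intervals of CHD8 replicate 1 and SMARCA5 replicate 1 did. Out to 400 bp from the motif, the median signed position was 17 and 18 bp for CHD8 and 140 and 135 bp to the 3′ side for SMARCA5. After 12 h of IAA, when CTCF is degraded, the 3′ share of SMARCA5 summits was 56.5% and 54.6% and that of CHD8 summits 57.0% and 57.7%.

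**Figure D4:**
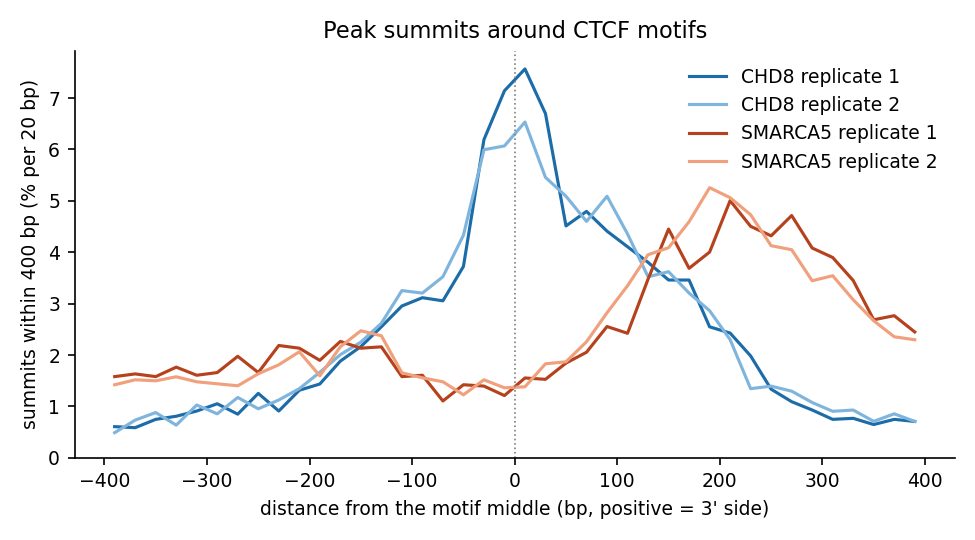
Distribution of peak summits around CTCF motifs, as the percentage of a library's summits within 400 bp that fall in each 20 bp bin (vertical axis) by distance from the motif middle (horizontal axis, bp, positive on the 3′ side). CHD8 lines are highest at the motif with a longer 3′ shoulder, and SMARCA5 lines are low at the motif and highest near 200 bp on the 3′ side.

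Few single sites had the whole arrangement in every library. In 14 CTCF sites over 1 kb from a start site, both CHD8 lists had the nearest summit within 50 bp of the motif middle and both SMARCA5 lists had it 50 to 200 bp away on the 3′ side. CTCF sites with 1 motif match and over 1 kb from a start site numbered 20853. The 14 sites were picked for the arrangement, so they do not show how typical it is. The pair with the strongest CTCF peaks among those outside untranslated sequence is printed on the strand of the motif, here the minus strand, with the motif match in capitals. The site near Gm44067 (chr6:128845320-128845520) overlaps an exon of that gene and of Gm26656, and the site in an intron of Prr5l (chr2:101815596-101815796) lies 18032 bp from a start site.
Gm44067, CTCF site: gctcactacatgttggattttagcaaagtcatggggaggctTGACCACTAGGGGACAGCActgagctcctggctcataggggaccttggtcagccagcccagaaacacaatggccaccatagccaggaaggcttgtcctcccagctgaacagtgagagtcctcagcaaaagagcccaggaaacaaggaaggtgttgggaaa
Prr5l, CTCF site: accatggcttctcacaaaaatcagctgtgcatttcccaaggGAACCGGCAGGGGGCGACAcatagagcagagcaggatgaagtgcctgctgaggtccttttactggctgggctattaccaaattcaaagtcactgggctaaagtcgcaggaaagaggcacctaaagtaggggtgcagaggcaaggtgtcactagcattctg
At the Gm44067 site the CHD8 summits lay 7 and 46 bp and the SMARCA5 summits 136 and 111 bp to the 3′ side of the motif middle. At the Prr5l site the distances were 11 and 33 bp for CHD8 and 178 and 56 bp for SMARCA5.

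CTCF sites with a CHD8 summit within 200 bp in both lists and no SMARCA5 summit that near in either numbered 1873 (6.26% of all). The reverse held at 407 (1.36%). Summits of either remodeler beyond 200 bp do not count here. Of the former sites, 35.3% were within 1 kb of a start site, and of the latter 32.9%, against 13.4% of all CTCF sites. Of the former, 61.2% had an SMC1A peak, and of the latter 40.8%, against 45.8% of all CTCF sites. The CTCF peak itself stood at a median percentile of 79.1 in the CTCF list at the former and 53.7 at the latter. Sites with summits in all 4 lists numbered 317, with 58.0% holding an SMC1A peak and a median CTCF percentile of 83.4. CTCF and SMC1A have 1 library each, so these shares have no replicate check.

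Promoters of 53843 annotated genes were put in the same classes by another rule. A gene counted as occupied when a peak of a list, not only its summit, reached within 1 kb of any of its start sites. Wide peaks meet this rule more easily, and the median width was 553 and 538 bp for CHD8 and 358 and 359 bp for SMARCA5. Of all genes, 11736 (21.8%) had a shared promoter, 2032 (3.77%) a CHD8-distinct and 437 (0.812%) a SMARCA5-distinct one. Of the 21755 protein-coding genes, 9201 (42.3%) were shared, 1393 (6.40%) CHD8-distinct and 95 (0.437%) SMARCA5-distinct. In the gene lists below, these protein-coding percentages are the background for every count.

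The genes of the targets themselves had shared promoters. Chd8 stood at percentiles 97.2 and 96.4 in the CHD8 lists and 50.7 and 91.4 in the SMARCA5 lists, Smarca5 at 88.5 and 82.1 against 92.9 and 92.7, and Ctcf at 99.9 and 99.9 against 72.5 and 95.7. Of the 10 core pluripotency genes, which define the stem cell state, 8 were shared and none was distinct. Sox2 had percentiles of 80.8 and 84.7 for CHD8 and 91.9 and 94.8 for SMARCA5, and Nanog 80.3 and 76.5 against 90.1 and 90.5. Pou5f1, which encodes Oct4, lacked a promoter peak in SMARCA5 replicate 1 and stood at 97.8 in replicate 2. Of 25 lineage regulators, which are mostly silent in stem cells, 12 were shared and none distinct. Foxa2, an endoderm factor, was shared at 65.7 and 62.9 for CHD8 and 47.3 and 10.7 for SMARCA5, and Sox17 had no peak.

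Among pathways linked to CHD8, 15 of 20 Wnt targets were shared and 1 was CHD8-distinct. This was Nkd2, an inhibitor of Wnt signalling, at percentiles 51.8 and 66.3. Of 22 p53 targets, 17 were shared and 1 was CHD8-distinct, Btg2, an antiproliferative gene at 88.8 and 75.6. Of 32 autism risk genes 25 were shared and 2 were CHD8-distinct, among them Grin2b, for a glutamate receptor subunit (64.0 and 12.2). These shares of CHD8-distinct promoters, 5.00%, 4.55% and 6.25%, were near or below the 6.40% of all protein-coding genes.

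Promoters of housekeeping genes ranked high for CHD8. All 84 genes for cytosolic ribosomal proteins had a promoter peak in both CHD8 lists, against 64.1% and 60.9% of all protein-coding genes. The same held for all listed genes of ribosome biogenesis and of mitochondrial ribosomal proteins. It also held for the core pluripotency genes and the listed genes of cell cycle and DNA replication. SMARCA5 peaks were frequent there too, at 85.7% and 92.9% of cytosolic ribosomal protein genes against 46.7% and 54.8% of all protein-coding genes. For ribosome biogenesis the SMARCA5 shares were 73.3% and 86.7%, and for mitochondrial ribosomal proteins 75.6% and 79.5%. Of the 84 genes, 69 were shared, and at these the median percentile was 99.2 and 98.9 for CHD8 and 74.5 and 79.7 for SMARCA5. Over all shared protein-coding promoters the medians were 89.5 and 86.4 against 68.6 and 78.4. The 78 mitochondrial ribosomal protein genes had 47 shared and 4 CHD8-distinct promoters, among the latter Mrpl21 (98.2 and 97.6) and Mrpl10 (93.8 and 91.1). Respiratory chain complex I, the entry point of electrons from NADH, had 7 CHD8-distinct promoters of 45 with its assembly factors counted (15.6%), and Ndufb8 stood at 98.3 and 98.0 and Ndufa11 at 96.8 and 96.4. Ribosome biogenesis had 3 of 30, namely Gar1, a subunit of the H/ACA snoRNP that guides pseudouridylation (99.7 and 99.6), Bop1 (99.1 and 98.6) and Rrp12 (87.9 and 90.2). Of 39 proteasome genes 3 were CHD8-distinct, among them Psmd5 (95.3 and 92.5). The subunits Polr3b of RNA polymerase III (98.9 and 98.6) and Polr2f (89.1 and 86.9), the splicing factor gene Sf3b2 (98.7 and 98.1) and the translation initiation factor genes Eif3g (95.6 and 96.1) and Eif2b1 (93.3 and 92.5) were CHD8-distinct as well. Their lists had 2 of 22 RNA polymerase subunits (9.09%), 1 of 62 splicing factors (1.61%) and 3 of 67 translation factors (4.48%) in that class, and cytosolic and mitochondrial ribosomal proteins had 3.57% and 5.13%, so several of these shares were below the 6.40% of all protein-coding genes. These lists held 0 SMARCA5-distinct promoters, from which nothing can be read at a background of 0.437%.

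The C2H2 zinc finger genes named Zfp, many of them repressors of transposable elements, had 46 CHD8-distinct promoters of 391 (11.8%), 218 shared (55.8%) and 0 SMARCA5-distinct ones. Zfp119a stood at 97.8 and 96.5 and Zfp583 at 95.5 and 94.4 in the CHD8 lists. Replication-dependent histone genes were shared in 55 of 67 cases, with medians of 88.7 and 84.6 for CHD8 and 93.0 and 90.9 for SMARCA5. They were 1 of 3 lists with at least 5 shared genes in which both SMARCA5 medians were above both CHD8 medians, against the order over all shared protein-coding promoters. The others were the core pluripotency genes (83.1 and 81.0 against 90.2 and 90.0) and the Wnt targets (79.2 and 70.5 against 80.6 and 80.4). Of the 39 Hox genes, the regulators of body axis identity, 25 were shared, 0 CHD8-distinct and 2 SMARCA5-distinct (5.13%), Hoxb2 (49.1 and 66.0) and Hoxb6 (10.6 and 28.2). In the 36 imprinted genes matched, 20 were shared, Mcts2 (84.8 and 85.4) and Magel2 (40.5 and 60.6) were CHD8-distinct, and Plagl1, a zinc finger gene of growth control, was SMARCA5-distinct (21.4 and 36.7). Olfactory receptor genes, which serve as silent controls, had no peak in 1086 of 1093 cases.

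CTCF and cohesin genes were shared in 13 of 17 cases, and the ISWI ATPases and their partners in 13 of 14. The 3 distinct promoters of these lists were all CHD8-distinct and on chromosome X: Stag2, a cohesin subunit gene (83.1 and 75.7), Hdac8, for the enzyme that deacetylates cohesin (89.4 and 86.2), and Smarca1, the ISWI paralog of Smarca5 (44.4 and 22.4). The only CHD8-distinct gene of 16 naive pluripotency genes, Nr0b1 (77.2 and 66.9), is X-linked too, and so are Rpl10 (97.6 and 97.0), Rpl39 (97.4 and 96.8), Psmd10 (88.4 and 87.8) and Ndufb11 (96.0 and 97.0).

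Chromosome X stood apart from every autosome in these lists. Of its 948 protein-coding genes, 247 (26.1%) had a CHD8-distinct promoter and 53 (5.59%) a shared one, against 5.51% and 44.0% on the autosomes, where single chromosomes ranged from 2.21% to 7.67% CHD8-distinct. A promoter peak was present at 45.8% and 42.3% of X genes in the CHD8 lists and at 8.65% and 13.6% in the SMARCA5 lists. On the autosomes the shares were 65.0% and 61.8% against 48.4% and 56.7%. Each of the 14 lists used had fewer peaks per Mb on X than on the autosomes. The ratio of X to autosomes was 0.29 and 0.30 for CHD8, 0.12 and 0.11 for SMARCA5, 0.21 and 0.19 for CHD4, 0.25 and 0.30 for SMARCA4, 0.26 for CTCF and 0.14 for SMC1A, so the low density of SMARCA5 was nearly matched by SMC1A. The X promoter peaks that were called ranked lower than autosomal ones, at a median percentile of 77.6 and 74.1 against 84.7 and 81.6 for CHD8 and of 28.3 and 32.9 against 55.2 and 60.8 for SMARCA5. E14 is a male line. The filters and alignment settings behind the lists are not given in the sources used here, and the part that X copy number, filtering or alignment has in these values was not tested. After 12 h of IAA, X promoters had a peak in 46.1% and 40.6% of cases for CHD8 and 20.9% and 18.6% for SMARCA5. In the untreated lists of the remodelers CHD4 and SMARCA4, X promoters had a peak in 34.8% and 37.0% and in 40.4% and 32.4%, so those of SMARCA5 were the lowest of the remodelers. On the autosomes alone, complex I had 5 CHD8-distinct promoters of 43 (11.6%), Zfp genes 41 of 383 (10.7%), ribosome biogenesis 3 of 28 (10.7%) and cytosolic ribosomal proteins 1 of 80 (1.25%).

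**Figure D5:**
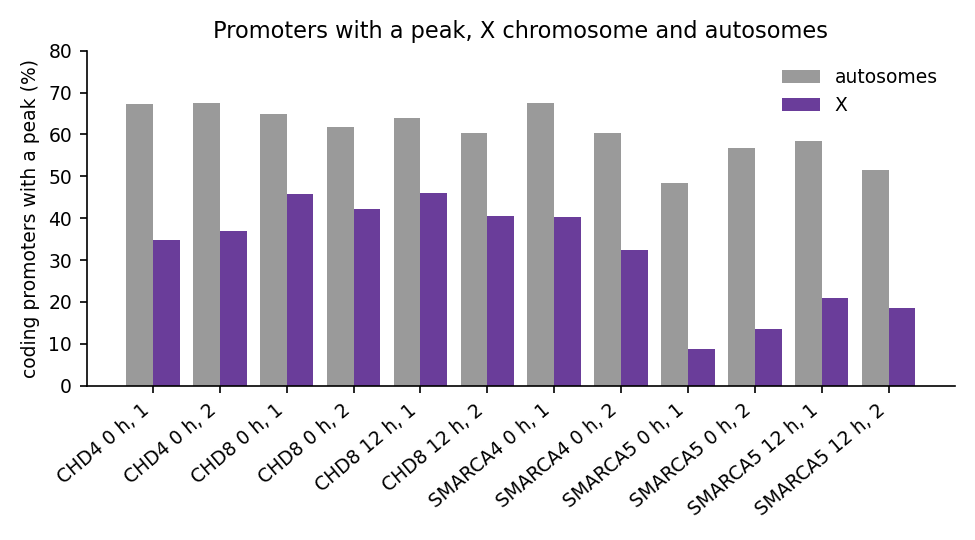
Percentage of protein-coding genes with a promoter peak (vertical axis) on the autosomes (grey) and on chromosome X (purple), for each remodeler library by target, hours of IAA and replicate. The X bars of SMARCA5 are the shortest, at 8.65% and 13.6% without IAA and 20.9% and 18.6% after 12 h, and those of CHD8 are between 40.6% and 46.1%.

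Single regions show how far apart the lists could be. The top CHD8-distinct promoter, Ywhae, stood at percentile 100 in both CHD8 lists with a fold enrichment of 131 and 87.0 and had no SMARCA5 peak. Ccdc115, for a factor of vacuolar ATPase assembly (99.8 and 99.8), Med25, for a Mediator subunit (99.7 and 99.7), Gar1, Acp2, for a lysosomal acid phosphatase (99.7 and 99.6), and Ercc1, for a DNA repair nuclease subunit (99.5 and 99.5), followed. Absence from the SMARCA5 lists did not hold at every time. After 12 h of IAA, Ywhae and Ccdc115 had a peak in both SMARCA5 lists, Med25, Gar1 and Acp2 in 1, and Ercc1 in neither. Away from start sites, strong CHD8-distinct regions included an intergenic one 9688 bp from the start site of Gm26455 (98.5 and 97.9) and an intronic one in Fgf11 (97.2 and 96.3).

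The top SMARCA5-distinct promoters had lower folds. Mettl27 had a fold enrichment of 5.56 and 5.66, and Otx2, a regulator of the exit from naive pluripotency and of forebrain, one of 6.58 and 6.38, in an intron 493 bp from a start site. Zfp1, Slc13a2, Slc43a1, for an amino acid transporter, and Scn3a, for a sodium channel subunit, followed. The genes Otx2 and Slc13a2, for a dicarboxylate transporter, count as shared through other peaks, those of Otx2 at 58.5 and 34.6 in the CHD8 lists. A distinct region therefore need not make its gene distinct, and by the rule for genes 0 of the 391 Zfp genes listed were SMARCA5-distinct. The top distal regions had higher percentiles, with the region near Ccr1, a chemokine receptor gene, at percentile 100 in both lists (fold enrichment 7.29 and 10.5), and regions in introns of Smg1 (99.9 and 99.8), Syt1 (99.8 and 99.9), Trim44 (99.8 and 100), Sfi1 (99.8 and 100) and Dip2c (99.8 and 99.8). Their folds were not all higher: the Sfi1 region had 3.42 and 4.39, below the 5.07 to 7.99 of the top promoters. The median folds of the whole SMARCA5 lists were 3.72 and 3.59, so in replicate 1 the Sfi1 region was below the median by fold. Of the distal regions, the Ccr1, Syt1 and Dip2c regions had a peak in 1 CHD8 list after 12 h of IAA, the Smg1 region in both and the Trim44 and Sfi1 regions in neither.

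Over whole classes, 61.5% of the 8411 CHD8-distinct regions had a peak in both CHD8 lists made after 12 h of IAA and 11.0% in both SMARCA5 lists, with 58.3% in neither of the latter. Of the 9882 SMARCA5-distinct regions, 45.0% had a peak in both later SMARCA5 lists, 9.72% in both later CHD8 lists and 69.7% in neither of the latter. The other remodelers were often there too: SMARCA4 had a peak at 82.6% and 73.9% of SMARCA5-distinct and at 66.9% and 46.9% of CHD8-distinct regions, and CHD4 at 6766 and 5236 of the 9882 against 6224 and 6206 of the 8411. After a shift by 100 kb these shares were 7.98% to 14.7%.

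Shared promoters ranked very differently between the lists in some genes. Of the 9201 shared protein-coding promoters, 4987 had both CHD8 percentiles above both SMARCA5 percentiles and 1190 the reverse. Each of these orders is met by 1 of the 6 relabellings of 2 against 2 libraries, so such counts have a high background. The 4987 are more than 1 in 6 of the 9201 promoters. The 1190 are fewer than 1 in 6, so nothing can be read from the number with SMARCA5 higher. The imbalance of the counts goes with the medians over these promoters, 89.5 and 86.4 for CHD8 and 68.6 and 78.4 for SMARCA5. Rpl34, for a protein of the large ribosomal subunit, was the most extreme, at 99.6 and 99.4 against 2.20 and 11.8. Ttc17 followed at 98.3 and 97.8 against 6.35 and 7.57, then Lrrc40, Fbxo36 and the divergent pair Acaa1a and Myd88, which share 1 peak. On the other side were Chadl (5.03 and 32.4 against 92.6 and 99.0), Slc13a2, Rnf43, for a ubiquitin ligase that removes Wnt receptors (28.6 and 6.09 against 89.2 and 74.0), Kcnk3, Plscr2 and Pdzrn4. These genes were picked for their difference, so their values are a description.

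The sequence below the summits differed between classes, also away from promoters and CTCF sites. Over whole lists the median GC content of the bases up to 100 bp from a summit was 55.2% and 55.2% for CHD8 and 48.3% and 49.8% for SMARCA5, without overlap (two-sided exact permutation p = 0.333, n = 2 against 2). Over distal regions more than 1 kb from a CTCF site it was 53.7% in the 5379 CHD8-distinct, 46.3% in the 8237 SMARCA5-distinct and 49.8% in the 6797 shared regions, with 45.3% in windows shifted by 100 kb. Windows with a GC content above 50% and an observed to expected CG ratio above 0.6 made up 10.2%, 1.12% and 7.15%, against 1.89% of shifted windows.

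Several short elements of promoter factors were most frequent in the CHD8-distinct windows, all searched on both strands as exact letters. The core YY1 element AAGATGGC was in 6.15% of these CHD8-distinct, 1.19% of SMARCA5-distinct and 2.34% of shared distal windows, against 1.51% of shifted windows and 2.76% of 32609 RefSeq promoters of GRCm38, whose windows are longer. The NRF1 element GCATGCGC was in 3.14%, 0.510% and 1.19% (shifted 0.324%, promoters 2.72%). For the ETS element CCGGAAG the shares were 5.26%, 0.923% and 2.02% (shifted 0.835%, promoters 8.92%), and for the GC box GGGCGG 14.2%, 2.68% and 7.97% (shifted 3.33%, promoters 35.9%). Others did not follow this order. The CCAAT box CCAAT was in 22.4%, 24.8% and 22.6% (shifted 24.9%) and the ZNF143 element ACTACAA in 1.47%, 2.02% and 1.71% (shifted 2.13%). The cyclic AMP response element TGACGTCA was in 0.428%, 0.121% and 0.103% (shifted 0.142%), with shared regions lowest. The octamer ATGCAAAT, read by Oct4, was in 1.34%, 1.21% and 0.956%, against 1.17% of shifted windows. A match is a description of letters and not a bound site, and GC-rich letters are more frequent where GC content is higher. Of the 331 CHD8-distinct distal windows with the YY1 element, 48.3% were at least 50% repeat-masked, against 10.7% of those without it and 23.9% of all shifted windows. An example with no masked base, which is also the top CHD8-distinct distal region over 1 kb from a CTCF site, is the region near Gm26455 at chr5:118409030-118409230 on the plus strand, which holds the element on the opposite strand, in capitals.
Gm26455, CHD8-distinct distal: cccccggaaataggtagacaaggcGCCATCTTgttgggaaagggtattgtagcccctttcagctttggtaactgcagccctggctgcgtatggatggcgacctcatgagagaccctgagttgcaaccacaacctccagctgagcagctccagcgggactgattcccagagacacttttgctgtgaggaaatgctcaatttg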

How the data were processed

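ChIP-seq peak lists of 2 CHD8 and 2 SMARCA5 libraries from untreated cells were compared, with 10 further lists read beside them (CTCF, SMC1A, CHD4, SMARCA4 without IAA, CHD8 and SMARCA5 after 12 h). The labels' protocols describe fixed cells, chromatin sheared by sonication and antibodies on protein A/G beads. The submitters' processing notes name Trim Galore, Bowtie2, MACS2, deepTools, mm10 and hg38 without roles, versions or settings, so the control and threshold of the peak calls are not given in the sources used here. Each list is 1 library and has 10 columns in the narrowPeak layout. Column 7 of the deposited lists is the authors' fold enrichment of a peak over background, a ratio. Columns 8 and 9 of the deposited lists are the −log10 p and −log10 q values the authors' caller gave. Column 10 of the deposited lists places the summit within its peak. No list gives reads, so depth is unknown and a missing peak is no measured absence.

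Peaks on chromosomes 1 to 19 and X were used. 0 peaks ended past a GRCm38 chromosome end, so GRCm38 and the GENCODE M21 basic annotation were used, with 75451 start sites. E14 derives from 129 mice and the reference from C57BL/6J, which can shift single motif matches. Percentiles are ranks by −log10 p within a list. The CTCF motif model was learned from 2000 CTCF summits on 9 chromosomes. Sequences are from the RefSeq copy of GRCm38 and promoters from RefSeq. Regions printed were named by a fixed rule: per distinct class the 6 promoter and 6 distal regions with the highest lower percentile, the 4 strongest shared regions, 6 shared coding promoters per direction with the largest non-overlapping rank difference, and up to 4 distinct members of each gene list and direction (or the first 4 of a list with none). Only some of them are described, and single regions and genes that the rule names are not reported here. Groups followed the labels. Libraries were the units of each exact permutation test (6 relabellings). Replicate numbers pair nothing the labels state. The members and the gene lists were chosen with earlier results of these data known. The region classes, the promoter share and the 3′ share were tested on simulated lists, and the other measures were not. Python 3.11.15, numpy 2.4.6 and scipy 1.17.1 were used.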

Additional observations from a re-analysis of the deposited data

Results flagged for a closer look

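Outside promoters, CTCF sites took opposite places in the lists of the remodelers. Among peaks over 1 kb from a start site, the median percentile of peaks at CTCF sites exceeded that of the other peaks by 5.10 and 2.57 points in the CHD8 lists. In the SMARCA5 lists the difference was −1.86 and −2.13 points. Every CHD8 library lay on one side of 0 and every SMARCA5 library on the other, and the mean difference between remodelers was 5.83 points. Contrasts were picked for this section by that same separation, so the separation is no support. The difference between remodelers was not tested, and it was not recomputed with peaks ranked by fold enrichment. With promoter peaks included, the differences were 2.61 and −0.139 points for CHD8 and 1.59 and 1.28 points for SMARCA5, so the contrast does not appear there.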

How the results depend on the processing

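The alternatives gave 65 recomputed differences between the remodelers, many of which could not reverse. A replicate block keeps the difference, and leaving out 1 library cannot reverse a difference whose libraries do not overlap. Of the 65, 4 reversed, all for the median percentile of peaks at CTCF sites. That difference, 0.0953 points with libraries that overlap, was −2.05 when peaks were ranked by fold enrichment and −1.18 with equal list lengths, in both without overlap (two-sided exact permutation p = 0.333), and the cause was not tested. It was −1.09 to 1.28 when 1 library was left out. With a replicate block, exchanging labels within pairs of the same number, the smallest two-sided exact permutation p is 0.5, and the differences stay as they are, such as 6.25 points for the promoter share. The labels do not tie the numbers to shared material, and at the 17019 shared regions the deviations of same-numbered libraries had a Pearson r of 0.01.

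Counts of classes moved more, and 25 of 45 recomputed counts were within 1.5 times the reported one. With a −log10 q of at least 5, regions numbered 2440 (SMARCA5-distinct) and 5702 (shared), and genes 6307 (CHD8-distinct), 103 (SMARCA5-distinct) and 4326 (shared). With equal list lengths there were 5694 SMARCA5-distinct regions and 3759 CHD8-distinct and 250 SMARCA5-distinct genes. With peaks reduced to 100 bp on either side of the summit, there were 16807 CHD8-distinct, 16775 SMARCA5-distinct and 4378 shared regions. Without 1 library, CHD8-distinct regions ranged from 10248 to 20187 and genes from 2233 to 4664, and SMARCA5-distinct regions from 10968 to 33872 and genes from 502 to 1127, since a single list then decides presence or absence. The difference between X and autosomes in CHD8-distinct coding promoters was 20.5 points and 13.2 to 22.4 points under the alternatives for it. The alternatives for the start-site distance, for X and the flank of 400 bp were chosen after seeing the data.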

Other observations

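snRNA and snoRNA genes had about as many SMARCA5-distinct as CHD8-distinct promoters, and miRNA genes did not. Of 1382 snRNA genes, 11 had a CHD8-distinct and 16 a SMARCA5-distinct promoter, and of 1507 snoRNA genes, 20 and 22. Of 2196 miRNA genes, 66 (3.01%) and 25 (1.14%) did, and of all genes 2032 (3.77%) and 437 (0.812%). Among the snRNA genes, Gm26296 stood at percentiles 98.3 and 99.2 and Gm24136 at 98.6 and 95.2 in the SMARCA5 lists without a CHD8 peak. Snord96a was CHD8-distinct at 99.5 and 99.5. Such genes often lie inside others: Snora70 has the same CHD8 percentiles as its host Rpl10, 97.6 and 97.0, and its peak cannot be told apart from that of the host. Whether the snRNA and snoRNA balance differs beyond such sharing was not tested.

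Of 5305 lincRNA genes, 166 (3.13%) were CHD8-distinct and 67 (1.26%) SMARCA5-distinct, against 3.77% and 0.812% of all genes. Clustered protocadherins, whose alternative promoters hold CTCF sites, had 3 CHD8-distinct, 2 SMARCA5-distinct and 9 shared promoters of 57. Among autosomes, chromosome 8 had the lowest share of CHD8-distinct coding promoters, 2.21%, and 61.0% of its 1040 coding promoters were shared, against 44.0% over all autosomes.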
